A study of Rattus norvegicus with 6 samples.

Results

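The genes described here are 45 genes of the antiviral interferon response and of NF-kB-driven inflammation, taken from a list of such genes drawn up with earlier results of these data known and found by symbol among the 26126 entries of the count table. They fall into 25 interferon genes and 20 NF-kB genes, and all 45 symbols were in the table. RNA was sequenced from H9c2 cells, an established line from embryonic rat heart, in 6 libraries. All 6 libraries share the cell line, 10% serum, infection with an adenovirus and simulated ischemia-reperfusion. For the latter, cells sat in an acidic ischemic buffer (pH 6.2), flushed for 30 min with 95% N2 and 5% CO2, and were sealed for 1.5 to 3.5 h. The groups differ in the virus, with 3 libraries labelled with a control adenovirus and 3 with adPERK, an adenovirus for PERK, the endoplasmic reticulum kinase encoded by Eif2ak3. The sources used here do not give what the control virus carries, the dose of virus, or the times from infection and from reperfusion to harvest. No group without virus or without ischemia is among the 6 libraries, so the effect of the adenovirus itself on these genes cannot be told apart from their level in the cell line, and the comparison is of PERK against control virus alone. The labels do not tie a replicate to a culture of its own, and p-values therefore describe the spread between libraries.

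A cell that meets a virus can detect it through RNA sensors such as RIG-I and MDA5 or through DNA sensors such as cGAS. Sensing leads through IRF3 to interferon, which acts on its receptors through JAK kinases, STAT proteins and IRF9 to switch on antiviral effectors. NF-kB subunits are held in the cytoplasm by IkB proteins until the IKK complex releases them, after which they drive cytokines, chemokines, adhesion molecules and their own inhibitors. Loss of short-lived IkB when translation is lowered is a known link between eIF2 alpha kinases and NF-kB. An adenovirus vector and ischemia-reperfusion are both known triggers of such programs in heart tissue.

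Both programs act on DNA through known short sequences, and these are shown first because matches to them lay before genes near 0 counts and before expressed genes alike. RefSeq promoters of the GRCr8 assembly, from 250 bases before to 50 bases after a gene start, were at hand for 33 of the 45 genes, 18 of 25 interferon and 15 of 20 NF-kB genes. The other 12 (Usp18, Ddx58, Dhx58, Isg15, Ifit1, Ifit2, Mx2, Relb, Birc3, Lif, Csf1 and Ccl2) had no entry. The core of the interferon-stimulated response element, GAAANNGAAA on either strand, was in 12 of 18 interferon promoters (66.7%), in 1 of 15 NF-kB promoters (6.67%) and in 3.92% of all 33469 promoters of the table. Matches to the 10-base NF-kB consensus site on either strand were in 10 of 15 NF-kB promoters (66.7%), in 3 of 18 interferon promoters (16.7%) and in 7.51% of all promoters. Such a match describes letters only and is not evidence of binding in these cells, and the lists were drawn up from genes known for these programs.

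Stretches around the interferon element follow, with the matches in capitals (TTTC marks the reverse strand). Rsad2 (chr6:48788233-48788292, minus strand), Bst2 (chr16:18255058-18255123, minus strand) and Oas1a (chr12:41330400-41330465, plus strand) were at or next to 0 counts. Oas1b (chr12:41395871-41395936, minus strand) was nearly so. Gbp2 (chr2:234005671-234005726, plus strand), Parp14 (chr11:78408033-78408092, plus strand) and Ifi27 (chr6:128355203-128355262, plus strand) were expressed in all 6 libraries.
Rsad2: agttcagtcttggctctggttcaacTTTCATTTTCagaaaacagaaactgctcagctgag
Bst2: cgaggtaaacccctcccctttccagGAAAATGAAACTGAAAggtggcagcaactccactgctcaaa
Oas1a: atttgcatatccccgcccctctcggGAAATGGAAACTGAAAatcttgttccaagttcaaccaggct
Oas1b: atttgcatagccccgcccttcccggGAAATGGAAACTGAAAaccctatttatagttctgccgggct
Gbp2: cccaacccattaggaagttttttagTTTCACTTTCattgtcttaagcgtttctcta
Parp14: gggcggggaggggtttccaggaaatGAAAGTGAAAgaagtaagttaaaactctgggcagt
Ifi27: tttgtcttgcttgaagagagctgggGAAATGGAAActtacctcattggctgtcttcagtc

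The element was present in 4 of the 5 interferon promoters whose genes were near 0 and in 8 of the 13 others. The Oas1a and Oas1b stretches share 54 of 66 bases (81.8%), including both overlapping copies of the element. Oas1a and Oas1b are related genes, and whether their transcripts share reads was not tested.

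Stretches around the NF-kB consensus follow in the same way, with overlapping matches on both strands merged. Cxcl2 (chr14:17467294-17467354, minus strand) and Ccl20 (chr9:91837045-91837104, plus strand) were near 0, as was Cxcl10 (chr14:15988913-15988973, plus strand), 1 of 2 members whose promoter held both elements. Vcam1 (chr2:206742842-206742901, minus strand) was the other. Cxcl1 (chr14:17479370-17479430, minus strand), Il6 (chr4:5894609-5894668, minus strand) and Nfkbia (chr6:78597073-78597128, minus strand) were expressed in every library.
Cxcl2: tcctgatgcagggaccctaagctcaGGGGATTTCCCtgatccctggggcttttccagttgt
Ccl20: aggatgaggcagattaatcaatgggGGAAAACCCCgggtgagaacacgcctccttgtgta
Cxcl10: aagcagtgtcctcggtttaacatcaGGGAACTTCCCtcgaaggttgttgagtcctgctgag
Vcam1: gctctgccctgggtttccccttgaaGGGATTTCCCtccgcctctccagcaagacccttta
Cxcl1: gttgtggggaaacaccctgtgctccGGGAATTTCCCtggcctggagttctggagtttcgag
Il6: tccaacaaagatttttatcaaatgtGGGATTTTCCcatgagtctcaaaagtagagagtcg
Nfkbia: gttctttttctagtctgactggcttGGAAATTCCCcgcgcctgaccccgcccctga

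Of the 4 NF-kB genes near 0, 2 held the consensus in their promoter, and of the 11 others with a promoter 8 did. The neighbouring chemokine genes Cxcl1 and Cxcl2, which attract neutrophils, show the contrast. A full consensus lies 84 bases before the start of Cxcl1, which had 173 to 334 counts, and 74 bases before the start of Cxcl2, which had 0 to 13.

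Libraries held 77923398 to 119087414 counts. The spacing that recurred most among low counts was about 6 (5.8 to 6.1 over the libraries). How strong it was is not given, and many low counts were not multiples of 6. As a working limit, a gene was called near 0 where no library exceeded 18 counts, 3 such spacings. This limit is 0.150 to 0.231 CPM (counts set to a common library total). Totals were scaled by TMM, a factor that allows for differences in RNA makeup. Control replicate 3 stood apart, with 19287 entries above 0 counts against 15377 to 16685 in the other 5 libraries, and with 45.4% of 1090 olfactory receptor entries above 0 against 6.24% to 14.5%. Eif2ak3, the rat gene that encodes PERK, was at 26.4, 26.9 and 24.0 CPM in control and 26.5, 26.5 and 26.0 CPM in PERK libraries. The count thus did not check the labels, and directions below rest on the labels. Of 7 markers of skeletal myoblasts, Cdh15 (52803 to 89330 counts) and Myog (35929 to 52511) were the most abundant. Des had 452 to 572 counts and Chrna1 747 to 1096, and Myf5 was at 0 in every library. Myog, a myogenic transcription factor, fell in PERK libraries, from 486 ± 10.2 to 399.7 ± 9.25 CPM (SD, n = 3). Its log2 fold change was -0.28 with an edgeR adjusted p of 0.0137, and its part in the values below was not tested. It was the only one of 6 tested myoblast markers to pass. The others lay on both sides of 0, with log2 fold changes of 0.11 for Myh3 and 0.06 for Cdh15. Those of Myod1, Des and Chrna1 were -0.10, -0.07 and -0.05. Of 10 cardiomyocyte markers 5 were near 0, among them Nppa at 0 in every library and Myh6 at 0 in all but control replicate 3, while Tnnt2 had 13559 to 19202 counts. Apart from Tnnt2 and Actc1 (430 to 694 counts), no cardiomyocyte marker exceeded 46 counts in any library. Leukocyte markers summed to 8.54 to 12.4 CPM in control and 9.98 to 11.0 CPM in PERK libraries over 8 genes. Cd14 made up most of each sum (594 to 1173 counts). Csf1r had 54 to 108 counts and Cd68 15 to 40, so both were above 0 in every library. Lyz2 was at 0 throughout, and Ptprc was at 0 in 4 libraries and had at most 17 counts.

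**Figure D1:**
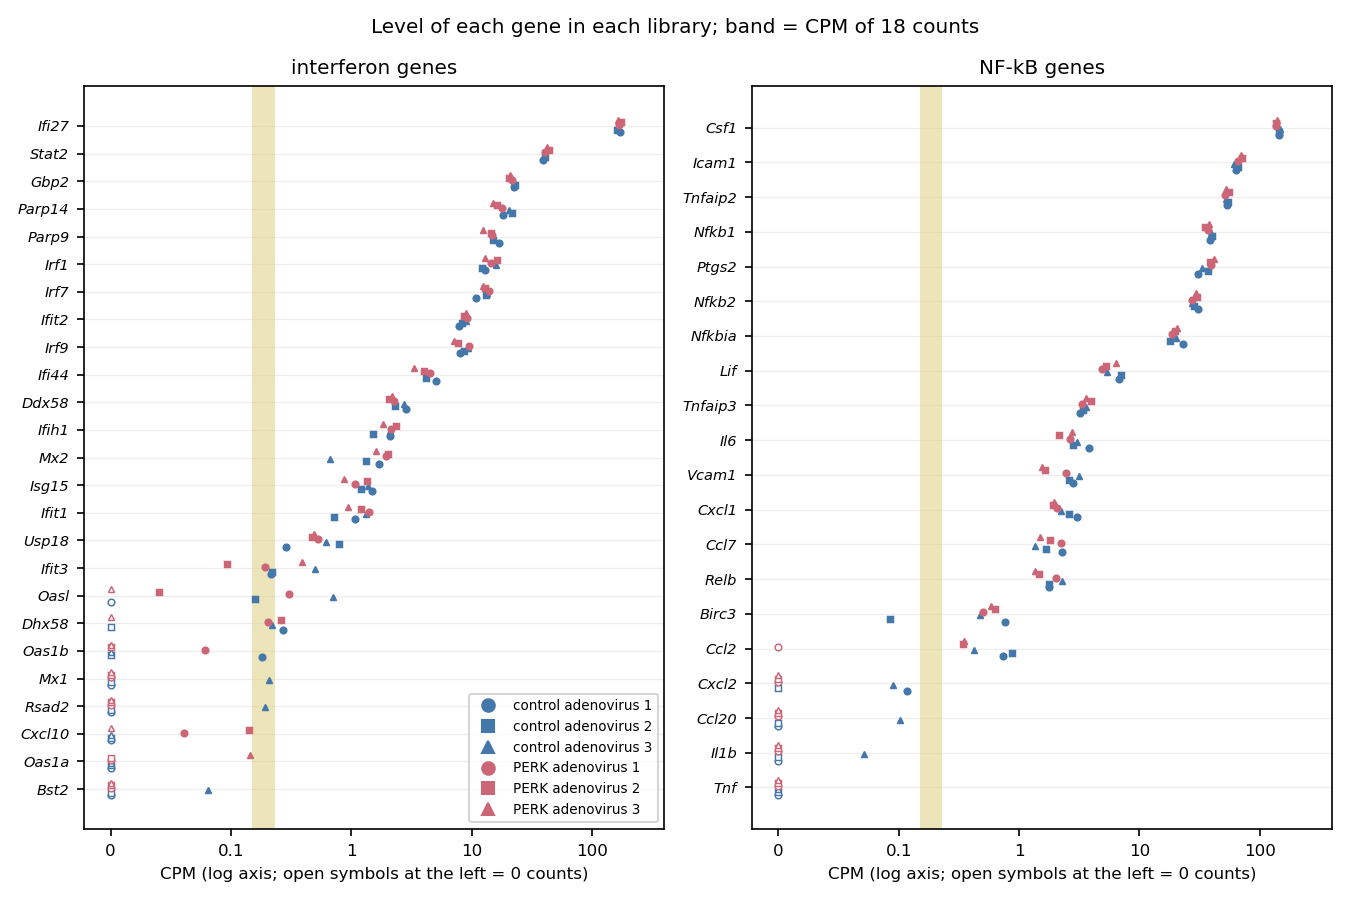
Level of each gene in each library in CPM on a log axis, interferon genes on the left and NF-kB genes on the right, ordered by mean level. Blue is control and red PERK adenovirus, the shape is the replicate, open symbols at the left are 0 counts, and the band is the CPM of 18 counts (0.150 to 0.231). The 9 genes near 0 lie at or left of the band, and red and blue symbols lie close together for the well expressed genes. CPM is not corrected for gene length, so the order down the page is not an order of transcript number.

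Of the 45 genes, 9 were near 0, namely the interferon genes Mx1, Oas1a, Rsad2, Bst2 and Cxcl10 and the NF-kB genes Tnf, Il1b, Cxcl2 and Ccl20. They encode a dynamin-like GTPase that blocks viruses (Mx1), a sensor that makes 2-5A for RNase L (Oas1a), viperin (Rsad2), tetherin (Bst2), the chemokines IP-10 (Cxcl10), MIP-2 (Cxcl2) and CCL20, and the cytokines TNF and interleukin-1 beta. Tnf had 0 counts in all 6 libraries, which at 18 counts allows a level of up to 0.150 to 0.231 CPM for counting error alone. Of these 9 genes, 6 were above 0 in a single library each. That library was control replicate 3 for 5 of them, with 16 counts for Mx1, 15 for Rsad2, 8 for Ccl20, 5 for Bst2 and 4 for Il1b, and PERK replicate 3 for Oas1a (13 counts). Over all entries 3713 were above 0 in 1 library only, and 58% of these were in control replicate 3. Cxcl10 had 4 and 17 counts in PERK replicates 1 and 2 and 0 elsewhere. Cxcl2 had 13 and 7 counts in control replicates 1 and 3 and 0 elsewhere. Both groups lay at or under the limit of 18 counts for these 9 genes, so no edgeR fold change is given for them. Fold changes of Cxcl10 and Cxcl2 quoted below, from the authors' deposited table and from DESeq2, rest on these few counts. Oas1b was also left untested by the low-count filter, with 20 counts in control replicate 1, 6 in PERK replicate 1 and 0 in the other 4.

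**Figure D2:**
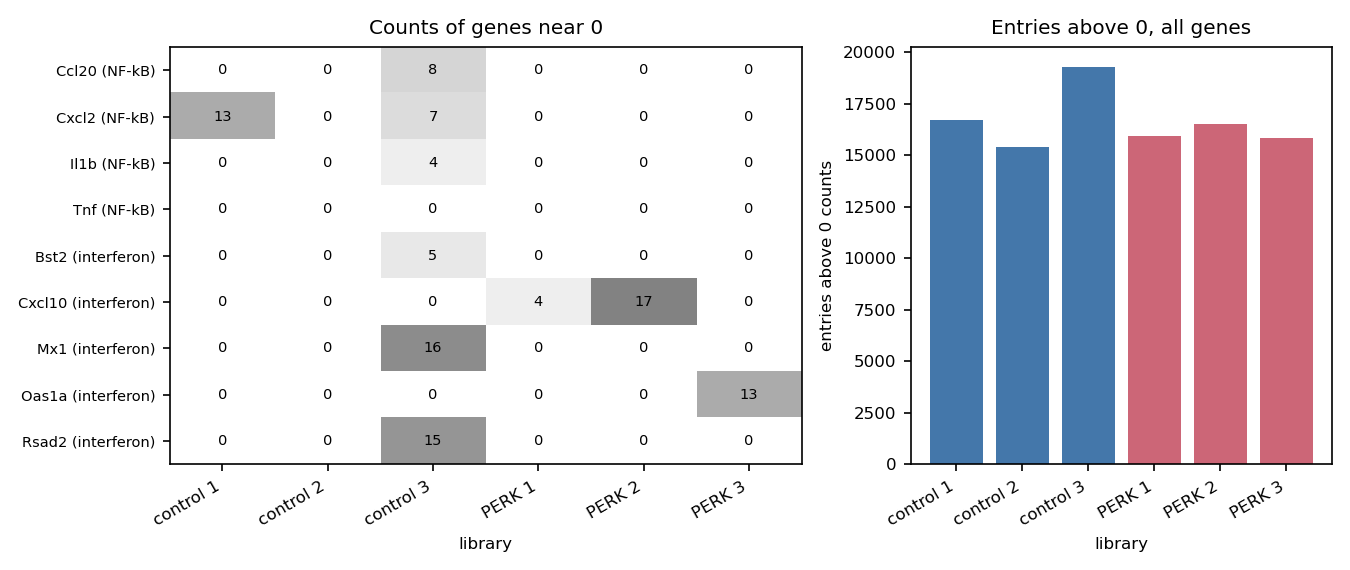
Left, counts of the 9 genes near 0 in each library, with darker cells for higher counts. Right, the number of entries above 0 counts in each library, blue for control and red for PERK. Most single-library counts sit in control replicate 3, the library with 19287 entries above 0.

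The remaining 35 genes were tested, 19 interferon and 16 NF-kB genes, and none passed an edgeR adjusted p of 0.05. Over all 14488 entries tested 61 passed, which is 0.421%. With no adjustment, p was under 0.05 for 7 of the 35, 1 interferon gene (Parp14) and 6 NF-kB genes (Ptgs2, Icam1, Vcam1, Cxcl1, Nfkb1 and Csf1), against 11.2% of all tested entries. Limma voom called 0 of the same 35, against 0.759% of all entries it tested. DESeq2 called 0 of the 25 interferon and 19 NF-kB genes it tested, against 1.71% of all entries. Its filter on low means gave some of these genes no adjusted p, among them Usp18, Ddx58, Mx2, Il6, Ccl2 and Vcam1, so they could not be called. The share of all entries likewise counts entries with no adjusted p. Unadjusted p was under 0.05 for 5 members with each method, against 8.3% of all entries with DESeq2 and 12.2% with limma voom. The 3 control and 3 PERK libraries did not overlap for 13 of the 35 genes, 5 interferon and 8 NF-kB, against 18.2% of all tested entries. The members were listed with earlier results of these data known, so these shares are given as a description. The median log2 fold change (PERK minus control) was -0.09 over the interferon genes and -0.06 over the NF-kB genes, beside -0.0045 over all tested entries. Without control replicate 3 the interferon median was 0.045, and with counts divided by 6 it was 0.018. The NF-kB median was -0.10 without control replicate 2. For the interferon genes, leaving out PERK replicate 1 moved the median to -0.21 and leaving out PERK replicate 3 to -0.0036. Summed over the list, interferon genes stood at 318 to 327 CPM in control and 311 to 330 CPM in PERK libraries. NF-kB genes stood at 403 to 413 and 398 to 413 CPM, so that the ranges overlap in both. The largest single parts were Ifi27 (163 to 174 CPM) and Csf1 (137 to 147 CPM). These sums therefore say little about genes with low levels.

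The size of change that the data still allow differs by gene. The 95% interval of the fold change lay within 1.5-fold in both directions for 19 of the 35 genes and within 2-fold for 27. The widest included Oasl, Dhx58, Ifit3, Birc3 and Ccl2. A gene that missed the threshold is not shown to be equal in both groups.

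**Figure D3:**
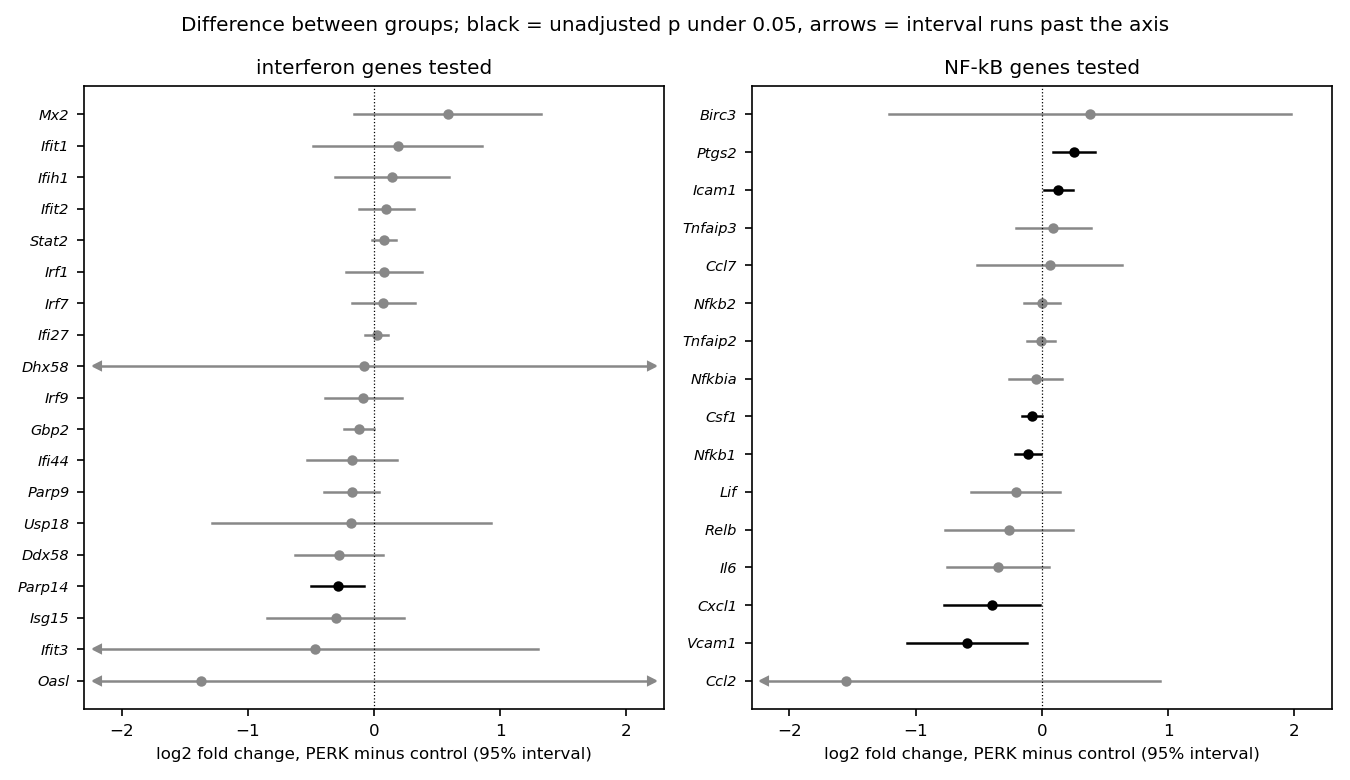
Log2 fold change of each tested gene, PERK minus control, with its 95% interval from the edgeR fit, interferon genes on the left and NF-kB genes on the right. Black marks the 7 genes with unadjusted p under 0.05, and arrows mark intervals that run past the axis. Most points lie within 0.4 of 0, and the widest intervals are those of Oasl, Dhx58 and Ccl2.

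Among interferon genes, the 5 signalling and feedback genes had log2 fold changes between -0.18 and 0.08, and none passed. Stat2, which acts with IRF9 below the type I interferon receptor, stood at 39.4, 40.5 and 40.9 CPM in control and 41.0, 44.3 and 42.4 CPM in PERK libraries (3183 to 5296 counts). All 3 PERK libraries lay above all 3 control libraries by a narrow margin, and the log2 fold change of 0.08 (SE 0.04) did not pass (edgeR adjusted p = 0.526) and was 0.05 without PERK replicate 2. Irf9, its DNA-binding partner, ranged from 7.21 to 9.55 CPM over the 6 libraries with a log2 fold change of -0.09. Irf7, the amplifier of interferon production, ranged from 10.8 to 14.1 CPM (0.07), and Irf1, a target of both interferon and NF-kB, from 12.3 to 16.3 CPM (0.08). Groups overlapped for these 3 factors. Usp18, which removes ISG15 and dampens interferon receptor signalling, had 32, 65 and 48 counts in control and 52, 56 and 44 in PERK libraries, or 0.289, 0.786 and 0.616 against 0.527, 0.468 and 0.492 CPM. Its control libraries spread 2.72-fold, and the log2 fold change of -0.18 had an interval of -1.29 to 0.92 (edgeR adjusted p = 0.927).

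The 3 RNA sensors had at most 317 counts in any library. Ddx58, which encodes RIG-I, was at 2.86, 2.31 and 2.73 CPM in control and 2.28, 2.07 and 2.18 CPM in PERK libraries (191 to 317 counts). Every PERK library was below every control library, with a difference of -0.28 on the log2 scale (SE 0.15) that did not pass (edgeR adjusted p = 0.532). Ifih1, which encodes MDA5, ranged from 1.51 to 2.34 CPM with overlapping groups and a log2 fold change of 0.14. Dhx58, the regulatory helicase LGP2, had 30, 0 and 17 counts in control and 20, 31 and 0 in PERK libraries (0 to 0.271 CPM). Both groups thus held a library at 0, and its interval ran from -3.58 to 3.42 (log2 fold change -0.08, SE 1.52, edgeR adjusted p = 0.991).

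Of the 14 antiviral effectors 4 were near 0, 9 were tested, and none passed. Ifi27, a mitochondrial and nuclear envelope protein that interferon induces, was at 172, 163 and 165 CPM in control and 167, 174 and 166 CPM in PERK libraries (12857 to 20875 counts). Groups overlapped, and the log2 fold change of 0.02 (SE 0.04, edgeR adjusted p = 0.890) had an interval of only -0.07 to 0.11. Gbp2, a guanylate-binding GTPase, was at 22.7, 23.1 and 22.6 CPM in control and 21.6, 20.6 and 20.9 CPM in PERK libraries (1763 to 2513 counts). Its PERK libraries were all lower, by a log2 fold change of -0.12 (SE 0.05, edgeR adjusted p = 0.456). Mx2, a second dynamin-like GTPase, was at 1.71, 1.33 and 0.668 CPM in control and 1.93, 2.01 and 1.62 CPM in PERK libraries (52 to 241 counts). Control replicate 3 was its lowest library, and the log2 fold change of 0.58 (SE 0.32, edgeR adjusted p = 0.540) was 0.29 without it and 0.89 without control replicate 1. Mx1 and Mx2 are related in sequence, and sharing of reads between them was not tested.

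The IFIT genes, whose products bind RNA or assist its binding, had fold changes of both signs, and sharing of reads between them was not tested. Ifit2 ranged from 7.90 to 9.19 CPM (log2 fold change 0.10) and Ifit1 from 0.714 to 1.41 CPM (0.19), both with overlapping groups. Ifit3 had 24, 18 and 39 counts in control and 19, 11 and 35 in PERK libraries, or 0.217, 0.218 and 0.501 against 0.192, 0.0919 and 0.391 CPM. The third replicate was the highest in both groups, and the log2 fold change of -0.47 (SE 0.77, edgeR adjusted p = 0.867) became 0.045 without control replicate 3. Isg15, the ubiquitin-like modifier, ranged from 0.871 to 1.50 CPM (-0.31, edgeR adjusted p = 0.684) and Ifi44 from 3.33 to 5.05 CPM (-0.17). Oasl, an OAS-like protein that aids RIG-I, had 0, 13 and 55 counts in control and 30, 3 and 0 in PERK libraries (0 to 0.706 CPM). Control replicate 3 was the highest, the log2 fold change of -1.37 (SE 1.76, edgeR adjusted p = 0.825) turned to 0.50 without that library.

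The PARP pair was lower in PERK libraries without passing the test. Parp14, a mono-ADP-ribosyltransferase of macrophage and interferon signalling, stood at 18.2, 21.6 and 20.5 CPM in control and 17.8, 16.4 and 15.1 CPM in PERK libraries (1352 to 2019 counts). Every PERK library was below every control library, and the log2 fold change of -0.29 (SE 0.09, interval -0.50 to -0.08) was the only one of the 19 interferon genes with an unadjusted p under 0.05 (edgeR adjusted p = 0.272). Parp9, which works with the ubiquitin ligase DTX3L and is known to act with PARP14, stood at 16.9, 14.9 and 15.2 CPM in control and 14.8, 14.4 and 12.4 CPM in PERK libraries (1114 to 1872 counts). Groups again did not overlap, though PERK replicate 1 lay close to control replicate 2 (log2 fold change -0.18, SE 0.09, edgeR adjusted p = 0.527; -0.10 without PERK replicate 3).

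**Figure D4:**
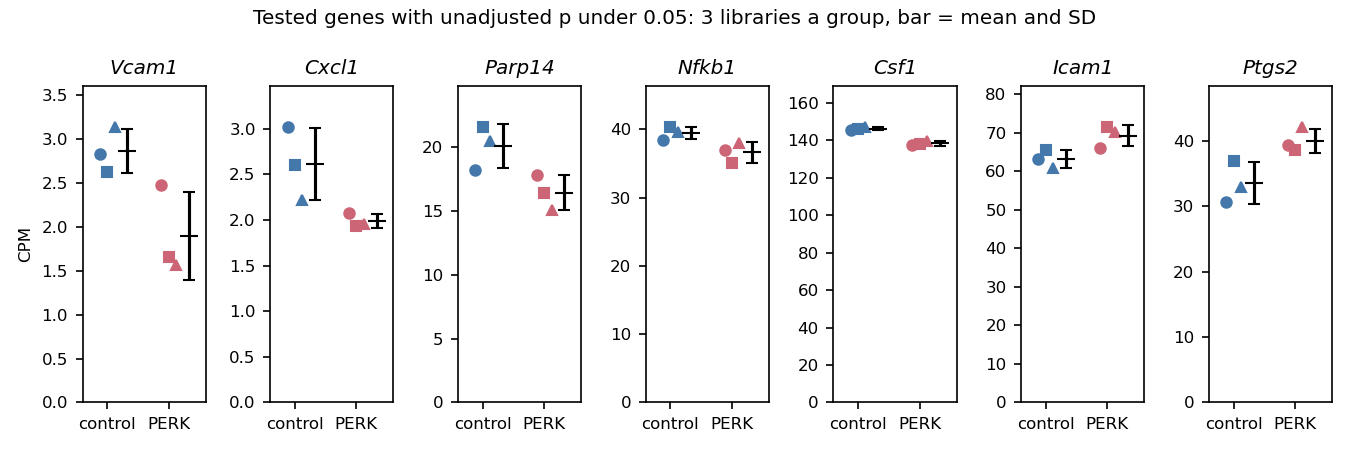
CPM in each library of the 7 tested genes with unadjusted p under 0.05, with control in blue and PERK in red, 3 libraries a group, and bars for mean and SD. Each vertical axis starts at 0. Vcam1, Cxcl1, Parp14, Nfkb1 and Csf1 were lower and Icam1 and Ptgs2 higher in PERK libraries, and none passed after adjustment over all entries.

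On the NF-kB side, the 3 subunit genes had log2 fold changes from -0.26 to 0.0048. Nfkb1, which encodes p105 and p50, was at 38.5, 40.3 and 39.7 CPM in control and 36.9, 35.0 and 38.1 CPM in PERK libraries (3090 to 4258 counts). The PERK libraries were all lower, with a log2 fold change of -0.11 (SE 0.05, edgeR adjusted p = 0.430). Nfkb2, the precursor of p52, ranged from 27.4 to 31.0 CPM with a log2 fold change of 0.0048 and an interval of -0.14 to 0.15. Relb, the partner of p52, ranged from 1.35 to 2.30 CPM (-0.26, edgeR adjusted p = 0.720).

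The inhibitors and feedback genes did not separate the groups. Nfkbia, which encodes IkB alpha and is a fast target of NF-kB, was at 22.9, 18.1 and 20.2 CPM in control and 18.9, 19.8 and 20.5 CPM in PERK libraries (log2 fold change -0.05, interval -0.26 to 0.16). Tnfaip3, which encodes the deubiquitinase A20, ranged from 3.24 to 3.96 CPM (0.09). Birc3, a ubiquitin ligase of the TNF receptor complex, had 84, 7 and 37 counts in control and 50, 76 and 52 in PERK libraries, or 0.759, 0.0847 and 0.475 against 0.506, 0.635 and 0.581 CPM. Its low library was control replicate 2, and without it the log2 fold change of 0.38 (SE 0.69, edgeR adjusted p = 0.882) turned to -0.11. Tnfaip2, a TNF-inducible protein tied to membrane tubes, was at 53.2, 54.7 and 52.7 CPM in control and 51.4, 56.2 and 52.5 CPM in PERK libraries (4105 to 6719 counts). Its groups overlapped (log2 fold change -0.0058, SE 0.05, edgeR adjusted p = 0.979).

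Of the 6 cytokines and chemokines tested 5 had a log2 fold change below 0, and none passed. Csf1, the macrophage growth factor, was at 146, 146 and 147 CPM in control and 137, 138 and 140 CPM in PERK libraries (11455 to 16535 counts). The spread within a group was small (SD 0.737 and 1.17 CPM, n = 3 each), the groups did not overlap, and the difference was -0.08 on the log2 scale (SE 0.03, edgeR adjusted p = 0.436). Il6, the acute-phase cytokine interleukin-6, was at 3.82, 2.79 and 3.03 CPM in control and 2.65, 2.16 and 2.78 CPM in PERK libraries (231 to 423 counts), lower in every PERK library (-0.35, SE 0.18, edgeR adjusted p = 0.503; -0.20 without control replicate 1). Lif, an interleukin-6 family cytokine known to act on heart muscle, ranged from 4.87 to 7.04 CPM with overlapping groups (-0.21). Cxcl1 was at 3.02, 2.60 and 2.22 CPM in control and 2.08, 1.93 and 1.96 CPM in PERK libraries (173 to 334 counts). Again no PERK library reached a control library (-0.40, SE 0.17, edgeR adjusted p = 0.418).

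The monocyte chemokines Ccl2 and Ccl7 share a receptor. Ccl2, which encodes MCP-1, had 81, 72 and 33 counts in control and 0, 41 and 31 in PERK libraries, or 0.732, 0.871 and 0.424 against 0, 0.343 and 0.346 CPM. Groups did not overlap, but PERK replicate 1 stood at 0, and the log2 fold change of -1.55 (SE 1.08, interval -4.04 to 0.94) did not pass (edgeR adjusted p = 0.645) and was -0.97 without that library and -2.91 with limma voom. Ccl7 ranged from 1.35 to 2.29 CPM in control and from 1.50 to 2.25 CPM in PERK libraries, with a log2 fold change of 0.06 and overlapping groups. The difference between the fold changes of Ccl2 and Ccl7 was not tested.

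The adhesion and prostaglandin genes differed in both directions, with 2 log2 fold changes above 0 and 1 below, and all 3 had an unadjusted p under 0.05 that did not pass after adjustment. Ptgs2, which encodes the inducible cyclooxygenase COX-2, was at 30.6, 37.0 and 32.9 CPM in control and 39.3, 38.6 and 42.0 CPM in PERK libraries (2565 to 4613 counts). It was higher in every PERK library, from 33.5 ± 3.23 to 39.95 ± 1.84 CPM (SD, n = 3; log2 fold change 0.26, SE 0.07, edgeR adjusted p = 0.221). Icam1, a ligand for leukocyte integrins, was at 63.2, 65.7 and 60.9 CPM in control and 66.1, 71.4 and 70.1 CPM in PERK libraries (4741 to 8548 counts), with a log2 fold change of 0.13 (SE 0.05, edgeR adjusted p = 0.382). Vcam1, a ligand for another set of integrins and a classic partner of Icam1 as an NF-kB target, was at 2.83, 2.63 and 3.13 CPM in control and 2.47, 1.65 and 1.56 CPM in PERK libraries (140 to 313 counts). It lay on the other side, lower in every PERK library, from 2.86 ± 0.255 to 1.90 ± 0.499 CPM (SD, n = 3; log2 fold change -0.59, SE 0.21, edgeR adjusted p = 0.331). Endothelial markers, whose cells are known for these adhesion genes, summed to 1.36 to 2.14 CPM in control and 0.638 to 1.33 CPM in PERK libraries over 6 genes. Tek made up most of that sum, at 1.40 ± 0.145 CPM in control and 0.792 ± 0.134 CPM in PERK libraries (SD, n = 3). Its log2 fold change of -0.82 did not pass (edgeR adjusted p = 0.225), while the authors' deposited table gives it an adjusted p of 0.0251. Kdr and Cdh5 were at 0 in all libraries but control replicate 3 (3 and 22 counts). Vwf had 7, 0 and 26 counts in control and 0, 5 and 5 in PERK libraries. Tie1 and Emcn went the other way, each through PERK replicate 2. Tie1 had 5, 5 and 12 counts in control and 0, 42 and 0 in PERK libraries. Emcn had 7 counts in PERK replicate 2 and 0 elsewhere. The part of endothelial cells in the Vcam1 and Icam1 values was not tested. In bulk RNA, fewer cells of a type and less RNA per cell cannot be told apart.

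The wider pathways were read from a list of 108 other genes, 57 of interferon and 51 of NF-kB signalling, and 84 of these were tested. Of 44 interferon and 40 NF-kB genes tested, 0 passed with edgeR, and unadjusted p was under 0.05 for 5 and 10 of them, beside the 11.2% of all tested entries. Limma voom called 0 too, with 3 and 10 under 0.05 unadjusted (12.2% of all entries). DESeq2 called 2, both of the NF-kB list, Ikbkg and Gadd45b, beside 1.71% of all 21773 entries it tested, with 3 and 8 under 0.05 unadjusted (8.3% of all). The medians were -0.05 and 0.0058 on the log2 scale. The interferon median was -0.02 without control replicate 1. The NF-kB median was 0.04 without PERK replicate 1, -0.03 without PERK replicate 2 and -0.02 with DESeq2, so its sign was not fixed.

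On the interferon side, the ligands Ifnb1, Ifng and Ifnl3 had 0 counts in all 6 libraries, while every receptor and kinase on the list was expressed. Ifnar1, a chain of the type I interferon receptor, stood at 51.3 ± 0.830 and 51.6 ± 2.46 CPM, Jak1 at 130.2 ± 2.97 and 136 ± 2.65 CPM and Jak2 at 72.9 ± 2.24 and 72.3 ± 3.07 CPM in control and PERK libraries (SD, n = 3). The log2 fold changes of the 8 receptors and kinases lay between -0.07 and 0.06. Of the sensing genes, Irf3 was at -0.05, and the cGAS gene Mb21d1 at -0.10 with 280 to 497 counts. The STING gene Tmem173 had only 35, 57 and 8 counts in control and 16, 12 and 11 in PERK libraries. The smallest p-values were those of Ifitm3, which blocks viral entry (log2 fold change -0.14, SE 0.04, edgeR adjusted p = 0.259), and Ifi35 (-0.37, SE 0.11, edgeR adjusted p = 0.272). Both had PERK libraries below all control libraries. B2m, the light chain of MHC class I, was at 376 ± 3.59 and 379 ± 7.86 CPM. The feedback genes Socs3 and Pias1 were at -0.09 and -0.11 on the log2 scale. Socs1, which inhibits JAK kinases, had 54, 18 and 27 counts in control and 58, 118 and 48 in PERK libraries. Its groups did not overlap in CPM (log2 fold change 1.00, SE 0.49, edgeR adjusted p = 0.489).

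Among the other NF-kB genes, the smallest p-value was that of Ikbkg, which encodes NEMO, the regulatory subunit of the IKK complex. It had 1903, 1308 and 1210 counts in control and 1198, 1542 and 1157 in PERK libraries, a log2 fold change of -0.36 (SE 0.08, edgeR adjusted p = 0.140) with groups that did not overlap in CPM. The catalytic subunits Chuk and Ikbkb were at -0.02 and -0.03. Rela, the main activating subunit, was at -0.04, and the receptors Tnfrsf1a and Ltbr at 0.02 and 0.09. The deubiquitinase Cyld was at 0.10 and the adaptor Tab2 at 0.07. Irak1, a kinase below interleukin-1 receptors, was at 129 ± 3.14 and 134 ± 2.06 CPM. Gadd45b, a stress gene and NF-kB target, stood at 76.8 ± 6.52 in control and 92.4 ± 6.45 CPM in PERK libraries (log2 fold change 0.27, SE 0.08, edgeR adjusted p = 0.225). Cx3cl1, which encodes fractalkine, had 33, 14 and 23 counts in control and 0 in all 3 PERK libraries. With each PERK library set to 18 counts, the control mean was 1.43-fold higher, which takes no account of the spread in control. Control replicate 2, with 14 counts, was itself under 18. The difference did not pass (edgeR adjusted p = 0.160).

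**Figure D5:**
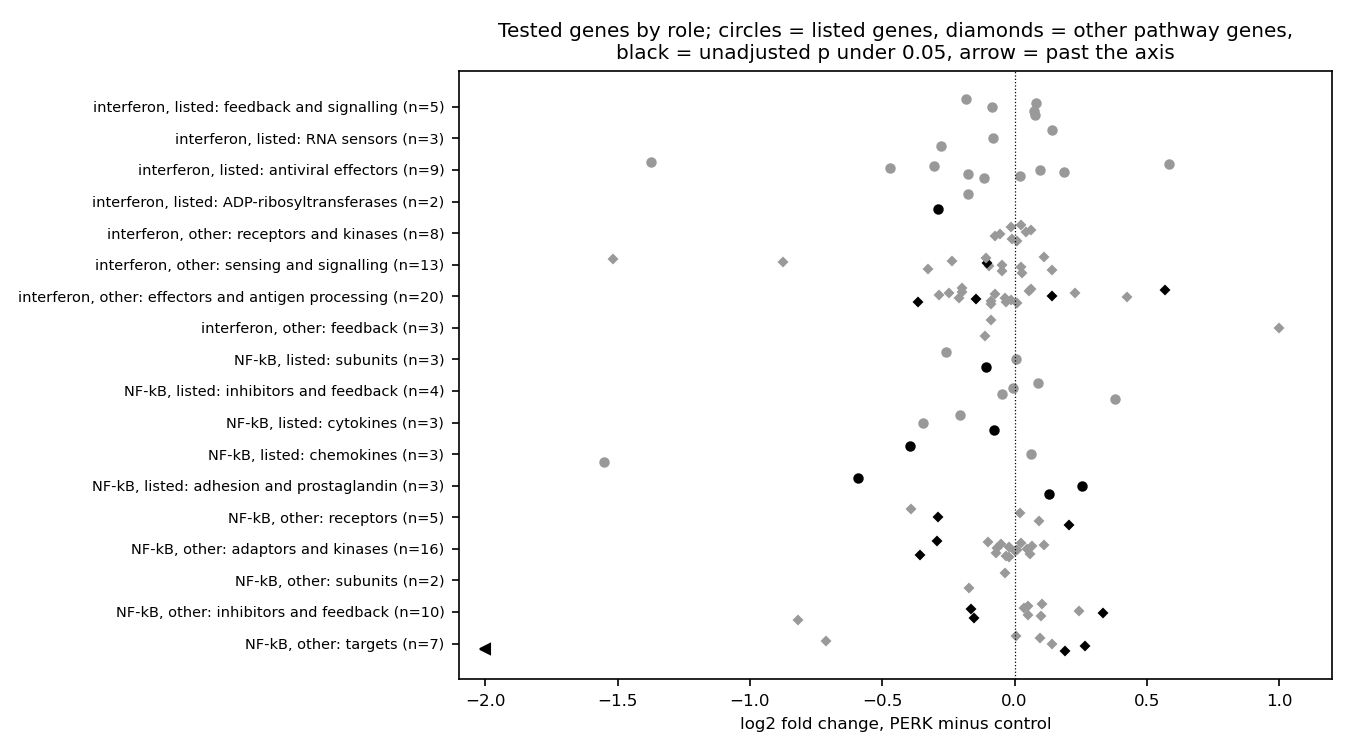
Log2 fold change (PERK minus control) of every tested gene by its role, with circles for the listed genes and diamonds for other genes of the pathways. Black marks unadjusted p under 0.05, and the arrow is Cx3cl1, with 0 counts in all PERK libraries. Receptors and kinases of interferon signalling lie close to 0, and the values farthest from 0 are those of Cx3cl1, Ccl2, Tmem173 and Oasl.

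The authors' deposited table treats some of these genes otherwise. The authors' deposited table gives an adjusted p under 0.05 to 4 of the 45 genes, against 2.27% of the 17483 entries with an adjusted p there. In the authors' deposited table these are Cxcl10 (log2 fold change 4.94, adjusted p = 0.0237), Cxcl2 (-5.33, adjusted p = 0.00268), Ccl2 (-1.55, adjusted p = 0.0251) and Vcam1 (-0.59, adjusted p = 0.0261). For Cxcl10 and Cxcl2 the counts behind the authors' deposited values are those given above, 2 libraries with 4 to 17 counts each and 0 in the other 4. Over the whole of the authors' deposited table, 214 of the 396 such entries were not among those tested here, and 108 had no library above 18 counts. DESeq2 run on the same 6 libraries gave log2 fold changes of 4.89, -5.26, -1.56 and -0.60 for these 4 genes and, through its filter on low means, no adjusted p for any of them. Ikbkg and Cx3cl1 also have an adjusted p under 0.05 in the authors' deposited table (0.0380 and 1.2e-04), as do Gbp5, Cxcl3, Sele and Plau, none of which exceeded 19 counts in any library.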

How the data were processed

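Counts per gene for 26126 entries were taken from the authors' deposited table as whole numbers. Bowtie 0.12.2 and the mouse build mm9 appear in the submitters' processing notes with no stated role, while entries carry rat symbols. Counting program, annotation and strand setting were not given in the sources used here. Normalized signal in the authors' deposited table is the count divided by 1 size factor per library and was not used. Log2 fold changes, their errors, a test score and p-values in the deposited table are the authors' own and are quoted only where named. A second table, with 6 columns that match no label, was not used.

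Groups were compared with edgeR 4.0.16 (R 4.3.3): TMM, filterByExpr (minimum count 10), quasi-likelihood test, group as the only term, Benjamini-Hochberg over 14488 entries at 0.05. Intervals are 95%, from the fold change and its F statistic. Limits of 18 counts and intervals cover counting error or library spread only. DESeq2 1.42.0 and limma 3.58.1 were alternatives. Members and lists were chosen with earlier results of these data known. Members with full values are those tested that had unadjusted p under 0.05, groups that do not overlap, a 2-fold spread within a group or 1 of the 5 highest mean CPM among interferon or NF-kB genes. Nfkbia was added after its values were seen. Of 108 other pathway genes 106 were in the table, and those named have the 2 smallest p-values of each list or the highest mean CPM of a role. A further such gene is counted but not reported here. Ifnar1, Socs1, Tmem173, Mb21d1, Ikbkb, Chuk, the ligands and the genes the authors' deposited table calls were added after their values were seen. In simulated counts for the 14488 entries edgeR recovered 5 of 50 genes changed 1.2-fold, 37 at 1.5-fold, 47 at 2-fold and 50 at 4-fold, with 2 false calls of 141. The changed genes all had a mean of at least 5 CPM, and the simulated spread followed its trend with level. These shares therefore do not cover members with lower means, such as Vcam1, Cxcl1, Il6, Isg15, Usp18 and Ccl2. With the spread set by that trend with level, the 95% intervals of edgeR held the true value for 95.2% of genes. Whether they do so for members whose spread departs from the trend was not tested.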

Additional observations from a re-analysis of the deposited data

How the results depend on the processing

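No listed gene passed 0.05 in any of the 14 alternatives, whether the count was over interferon or over NF-kB genes. Each fit without 1 library has fewer samples, and DESeq2 gave no adjusted p to some genes with low means. Over all entries the 61 calls became 372 with DESeq2, 110 with limma voom, 94 without a filter, 132 with robust estimation, 93 with counts divided by 6 and 12 to 38 without 1 library. Other NF-kB pathway genes gave 2 calls with DESeq2. With the replicate block, 9 entries and 0 listed genes passed. Same-numbered libraries had correlations of -0.06, 0.01 and 0.03 in their deviations, which gave no sign of pairing. Whether they share a culture or a day was not tested. Of 21 members with full values 14 kept their sign throughout. Turned signs were 0.044 for Usp18 with limma voom and, over fits without 1 library, ranges of -0.50 to 0.13 (Usp18), -0.68 to 0.50 (Dhx58), -1.13 to 0.045 (Ifit3), -4.29 to 0.50 (Oasl), -0.0033 to 0.043 (Ifi27), -0.11 to 1.03 (Birc3) and -0.045 to 0.022 (Tnfaip2). The cause was not tested. The 6 tested members with a library under 50 counts (Usp18, Dhx58, Ifit3, Oasl, Birc3 and Ccl2), and also Mx2 and Vcam1, had 95% intervals that passed 2-fold; the part of depth in this was not tested.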
